A study of Mus musculus with 48 samples.

Results

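The genes described here are 9 of the 53700 in the count table: the constant-region genes of the antibody heavy chains Ighg2c, Ighg2b, Ighg1, Ighg3, Ighm and Igha, the constant-region gene of the kappa light chain Igkc, the joining chain gene Jchain, and the B cell receptor gene Cd79a. They were selected on the measured counts of Ighg2c, which were low in hearts labelled as lacking Bmal1, and they serve to show whether the other antibody genes were low there too. The values that led to the choice were taken to be those of CBK against BMAL1 FLOX, so that comparison is described without a test. The tests below use the other 3 mouse lines. The hearts labelled as lacking Bmal1 include CBK/CEK, whose results were also known when the set was named and may have entered the choice. Tests of Ighg2c in CBK/CEK, and of its differences from other lines, thus give sizes against the spread between animals. They are no independent discovery of Ighg2c.

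Both ventricles of 48 male C57BL/6 mice from 4 lines were profiled by RNA sequencing, with 6 mice in each of 8 groups. CBK mice carried Bmal1 flox/flox with MHCα Cre+/-, CEK mice carried E4bp4 flox/flox with the same Cre, and CBK/CEK mice carried both floxed genes with it. Littermates with the same floxed genes but no Cre served as controls: BMAL1 FLOX for CBK, E4BP4 FLOX for CEK and BMAL1/E4BP4 FLOX for CBK/CEK. Cre CON mice carried the Cre without a floxed gene, and their littermates were WT. A line here is a knockout or Cre group with its controls. Animal names of the CBK and CBK/CEK lines share the prefix CBKE and interleaved numbers, while the CEK line has CEK and the Cre line MHC. Whether CBK and CBK/CEK mice came from separate breeding is not given in the labels. The MHCα (Myh6) promoter is active in heart muscle cells, and recombination in the B cells, plasma cells or other cells of the tissue was not measured. Neither the age of the mice nor the hour of tissue collection is given in the labels.

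Gene counts totalled between 13128833 and 28407868 in 47 libraries and 126338949 in WT replicate 1. Levels are given as CPM, counts scaled to a common TMM-normalised library size, and changes on the log2 scale with a standard error (SE). A gene is called where the edgeR quasi-likelihood p-value, adjusted over the 16623 genes that passed a filter on low counts, is under 0.05. Of the targeted genes, Nfil3, which is E4bp4, fell from 8.07 ± 1.40 CPM in its controls to 0.644 ± 0.0948 CPM (SD, n = 6) in CEK and from 9.34 ± 1.65 to 1.84 ± 0.649 CPM in CBK/CEK. In CBK, without a test, Nfil3 was higher than in BMAL1 FLOX, by 1.83 on the log2 scale (SE 0.15). Arntl, which is Bmal1, rose from 1.04 ± 0.381 to 8.40 ± 2.41 CPM in the libraries labelled CBK and from 0.987 ± 0.327 to 11.8 ± 0.894 CPM in those labelled CBK/CEK. Whole-gene counts pool all exons and do not show whether the floxed part was removed, so the absence of Bmal1 rests on the labels of these 12 libraries. Ventricular muscle genes summed to 43906 to 79346 CPM in every library, while the atrial genes Nppa, Sln, Myl4, Myl7 and Dkk3 summed to 65.2 to 2905 CPM and varied widely within groups.

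An antibody is built from heavy and light chains, and the constant region of its heavy chain sets its class. A naive B cell makes IgM and IgD; after class switching, which joins the rearranged variable segment to a constant gene further along the same locus, its descendants make IgG, IgA or IgE. Plasma cells secrete the product in bulk, and mice of the C57BL/6 strain carry Ighg2c where some other strains carry Ighg2a. In the heart, B cells are a small resident population, found mostly in and along the vessels.

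The IgG subclasses differ most in the hinge, the flexible stretch between the antigen-binding arms and the stem, whose cysteines link the heavy chains to each other. The hinge exons are shown as the parts in which these genes differ most. Gene counts do not show whether any read covered them. They lie on the minus strand of chromosome 12 in build GRCm38 and were read from the GENCODE M21 annotation, at chr12:113288263-113288325 for Ighg2c, chr12:113307261-113307326 for Ighg2b, chr12:113329844-113329882 for Ighg1 and chr12:113360529-113360576 for Ighg3. Capitals mark the in-frame cysteine codons, 3 in Ighg2c, 4 in Ighg2b, 4 in Ighg1 and 1 in Ighg3.
Ighg2c: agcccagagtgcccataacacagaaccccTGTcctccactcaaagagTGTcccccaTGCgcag
Ighg2b: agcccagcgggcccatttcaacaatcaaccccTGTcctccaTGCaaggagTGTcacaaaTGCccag
Ighg1: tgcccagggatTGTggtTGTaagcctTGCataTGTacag
Ighg3: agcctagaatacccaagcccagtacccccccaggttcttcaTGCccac

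The exon that follows the hinge, which codes for the part of the stem that Fc receptors bind, is the one in which Ighg2c and Ighg2b are nearest to each other among the 3 exons compared (the first constant exon, the hinge and this one). Its first 300 bases lie at chr12:113287854-113288153 in Ighg2c, and the capitals mark the 14 bases among them that differ from Ighg2b.
Ighg2c: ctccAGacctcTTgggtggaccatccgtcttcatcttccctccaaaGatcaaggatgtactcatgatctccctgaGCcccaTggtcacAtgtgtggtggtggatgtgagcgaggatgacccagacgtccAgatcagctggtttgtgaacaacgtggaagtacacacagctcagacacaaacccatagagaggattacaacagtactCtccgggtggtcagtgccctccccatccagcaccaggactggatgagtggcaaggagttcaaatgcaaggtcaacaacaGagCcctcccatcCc
Over the whole exon Ighg2c was 94.2% identical to Ighg2b, 75.2% to Ighg1 and 87.3% to Ighg3, and over the hinge 77.3%, 39.7% and 55.6%. Of the 1276 stretches of 50 bases in the exons of Ighg2c, 5.49% occurred in another annotated transcript, in each case Ighg2b. Reads from those stretches could have been assigned to neither gene, since reads with more than 1 alignment were tallied apart from the gene counts. No annotated gene overlapped Ighg2c, Ighm or Igha, while Igkc overlapped the unnamed gene Gm30211, and 8.31% of the stretches of Cd79a recurred in Gm32220, so Igkc and Cd79a counts carry that uncertainty.

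Ighg2c, the heavy chain constant gene of IgG2c, had the most counts of the 4 IgG genes in every library except CEK replicate 5, and was low in every library labelled CBK or CBK/CEK. In BMAL1/E4BP4 FLOX the lowest, median and highest library held 3.62, 5.97 and 8.18 CPM of Ighg2c. In CBK/CEK they held 0.0842, 0.494 and 0.70 CPM. The highest CBK/CEK library was below the lowest control, and the group means were 0.428 ± 0.240 and 5.95 ± 1.61 CPM (SD, n = 6). Ighg2c was 13.8-fold lower in CBK/CEK, or -3.78 on the log2 scale (SE 0.31, 95% interval -4.41 to -3.16), with an edgeR adjusted p of 1.59e-13. It ranked 13 of 16623 genes both by p and from the lowest fold change in this comparison, in which 5.87% of genes were called. The counts behind it were 2 to 18 per CBK/CEK library and 30 to 204 per control library, so single CBK/CEK values carry a large counting error.

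In the CBK line, the lowest, median and highest BMAL1 FLOX library held 4.31, 4.74 and 6.81 CPM of Ighg2c, and the CBK libraries held 0.127, 0.250 and 0.571 CPM. CBK was thus 17.5-fold lower, or -4.13 on the log2 scale (SE 0.32), which describes values taken to have led to the choice. In that comparison 8.4% of genes were called. The counts were 3 to 16 per CBK library and 113 to 186 per control library. Taken over the series, the 12 libraries labelled CBK or CBK/CEK held 0.0842 to 0.70 CPM of Ighg2c and the other 36 held 3.18 to 9.35 CPM.

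Loss of E4bp4 alone left no detectable change in Ighg2c. The lowest, median and highest CEK library held 3.98, 4.76 and 7.51 CPM against 3.5, 5.28 and 7.17 CPM in E4BP4 FLOX, so the groups overlapped over nearly their whole range. The log2 fold change was -0.00 (SE 0.26, 95% interval -0.52 to 0.51, edgeR adjusted p = 0.998), where 0.307% of genes were called. Cre CON held 3.18, 4.42 and 6.44 CPM and WT 3.39, 6.69 and 9.35 CPM, again overlapping. That log2 fold change was -0.43 (SE 0.25, 95% interval -0.94 to 0.08, edgeR adjusted p = 1), where 0.018% of genes were called.

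The differences between these changes were tested directly. The change of Ighg2c in CBK/CEK was lower than that of Cre alone by -3.35 on the log2 scale (SE 0.40, edgeR adjusted p = 7.35e-08), with 1.34% of genes called. It was lower than the change in CEK by -3.78 (SE 0.40, edgeR adjusted p = 2.13e-09), with 2.03% of genes called. Among the groups without Cre, Ighg2c in BMAL1/E4BP4 FLOX differed from WT by -0.08 on the log2 scale (SE 0.25, adjusted p = 0.995 by edgeR; 0.283% of genes called), and in E4BP4 FLOX by -0.25 (SE 0.25, edgeR adjusted p = 0.928; 0% of genes called by edgeR, with 1045 genes at an unadjusted p under 0.05 and 20 called by DESeq2). Line and floxed allele cannot be told apart in these control comparisons.

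**Figure D1:**
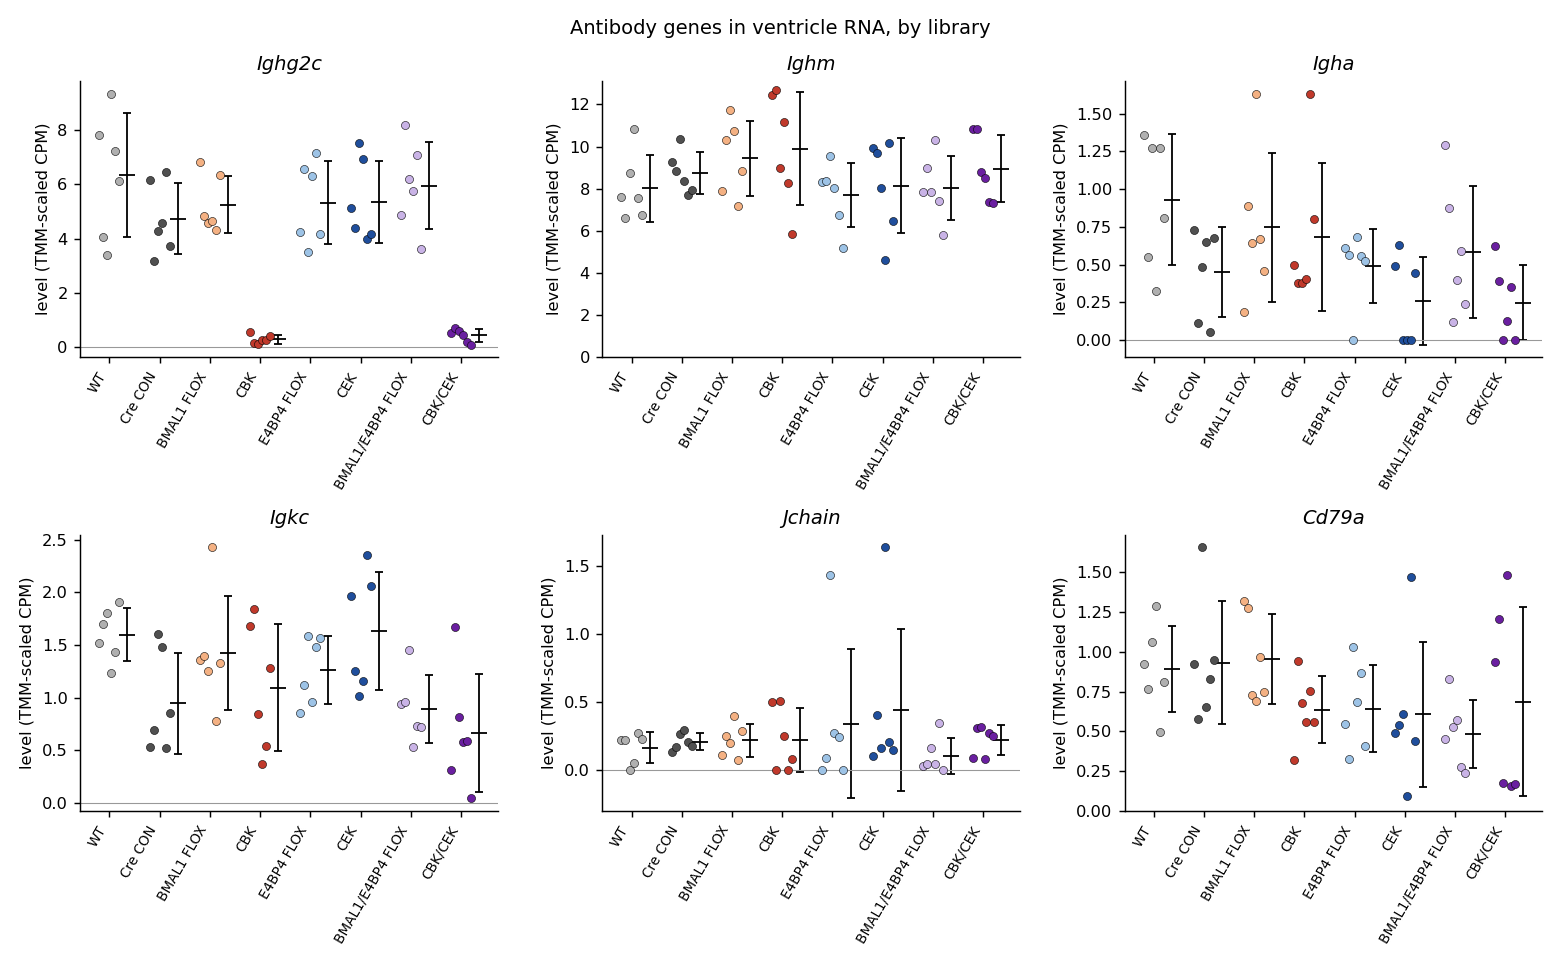
Level in TMM-scaled CPM (vertical axes, linear) of 6 antibody genes in each of the 48 libraries, by group; points are libraries, and the bars beside them are the group mean ± SD (n = 6). Ighg2c in CBK and CBK/CEK stays at or below 0.70 CPM while all other libraries are at 3.18 CPM or above, and the groups of the other 5 genes overlap.

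The other 3 IgG genes were nearly absent. Ighg2b, Ighg1 and Ighg3 had no count in 43, 41 and 46 of the 48 libraries, and a count of 0 allows up to 3 counts, or 0.0225 to 0.362 CPM depending on the library. Ighg2b reached its highest level, 0.313 CPM or 7 counts, in CBK/CEK replicate 1, whose Ighg2c stood at 12 counts. Ighg3 reached no more than 4 counts, in BMAL1 FLOX replicate 4. Ighg1, the IgG gene of responses driven by interleukin-4 in mice, stood at 83 counts or 4.35 CPM in CEK replicate 5, above the 76 counts or 3.98 CPM of Ighg2c in that library, and at 7 counts or less elsewhere. None of these 3 genes passed the filter on low counts, and neither did Jchain. Fitted without the filter, these 4 genes were not called in the CBK/CEK, CEK or Cre line, with adjusted p-values of 0.209 or above in CBK/CEK.

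Ighm, the IgM heavy chain gene and the heavy chain transcript with the most counts, was not called in any tested knockout. In CBK/CEK the lowest, median and highest library held 7.33, 8.67 and 10.9 CPM, and in BMAL1/E4BP4 FLOX 5.80, 7.84 and 10.3 CPM. The groups overlapped, and the estimated change was 0.15 on the log2 scale (SE 0.17, 95% interval -0.20 to 0.49), not called by edgeR (adjusted p = 0.774). Its interval excludes a change of the size of Ighg2c. The lowest group mean of Ighm was 7.69 ± 1.52 CPM (E4BP4 FLOX) and the highest 9.90 ± 2.67 CPM (CBK), and the log2 fold changes were 0.10 in CEK, 0.12 in Cre CON and, without a test, 0.07 in CBK.

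Igha, the IgA heavy chain gene, was measured with few counts. CBK/CEK libraries held a lowest, median and highest level of 0, 0.238 and 0.626 CPM, from 0 to 14 counts, and BMAL1/E4BP4 FLOX held 0.121, 0.493 and 1.29 CPM, from 2 to 37 counts. The log2 fold change was -1.28 (SE 0.73, 95% interval -2.75 to 0.19, edgeR adjusted p = 0.410), and the groups overlapped. Igha was also below its controls in CEK and Cre CON, at -0.86 (SE 0.75, edgeR adjusted p = 0.717) and -1.06 (SE 0.70, edgeR adjusted p = 1), neither of them called. In CBK it stood at -0.13 (SE 0.68) without a test. Ighd, the IgD heavy chain gene of naive B cells, was at 0.693 ± 0.525 CPM in CBK/CEK and 0.931 ± 0.266 CPM in its controls (log2 fold change -0.43, SE 0.45, edgeR adjusted p = 0.728).

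Igkc, the constant gene of the light chain that most mouse antibodies carry, overlapped between groups. The lowest, median and highest CBK/CEK library held 0.0421, 0.581 and 1.67 CPM, against 0.528, 0.837 and 1.46 CPM in BMAL1/E4BP4 FLOX. The log2 fold change was -0.42 (SE 0.41, 95% interval -1.24 to 0.41, edgeR adjusted p = 0.707). In CEK it was 0.38 (SE 0.40, edgeR adjusted p = 0.775), in Cre CON -0.75 (SE 0.40, edgeR adjusted p = 1) and in CBK, untested, -0.38 (SE 0.39). The groups overlapped in each of the 4 lines.

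Jchain, which links the units of secreted IgM and IgA, ranged from 0 to 1.64 CPM over all libraries, at 17 counts in its highest one. Its group means were 0.221 ± 0.108 CPM in CBK/CEK and 0.105 ± 0.131 CPM in BMAL1/E4BP4 FLOX, and 0.223 ± 0.236 CPM in CBK against 0.222 ± 0.12 CPM in BMAL1 FLOX. Cd79a, the signalling partner of the antigen receptor on B cells, held 0.156, 0.558 and 1.48 CPM in the lowest, median and highest CBK/CEK library and 0.242, 0.490 and 0.831 CPM in BMAL1/E4BP4 FLOX. Its log2 fold change was 0.47 (SE 0.46, 95% interval -0.46 to 1.40, edgeR adjusted p = 0.708). Of the 5 genes of the set that passed the filter, only Ighg2c was called in CBK/CEK, where 5.87% of all genes were called. None was called in CEK or Cre CON, where the shares over all genes were 0.307% and 0.018%, so the absence of calls among so few genes is near the background. The intervals of Igha, Igkc and Cd79a are wide, so smaller changes of these genes were not detectable at this depth.

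**Figure D2:**
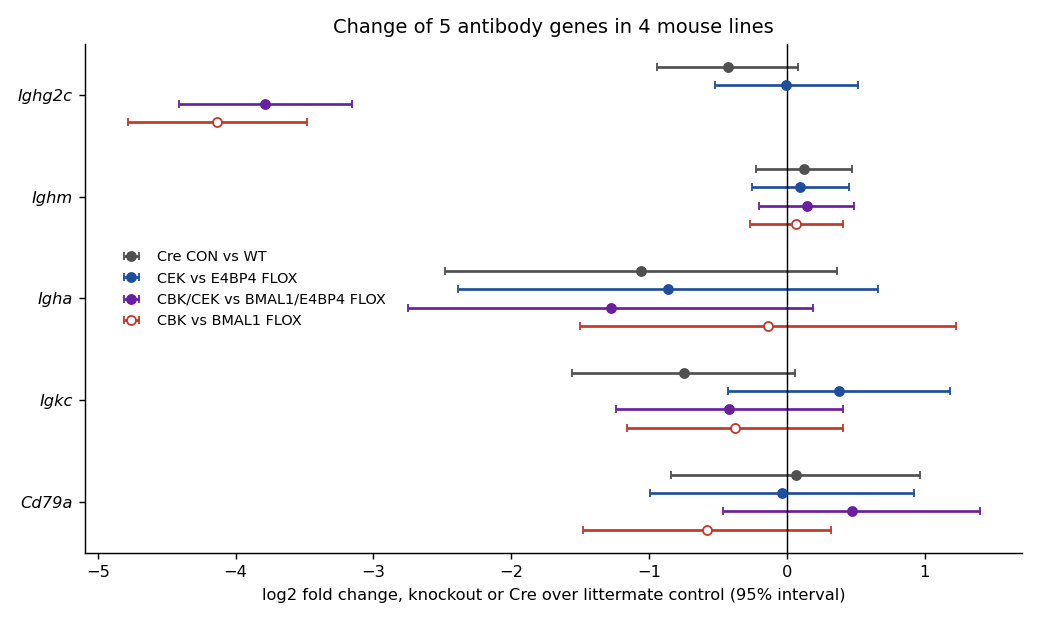
Log2 fold change (horizontal axis) of the 5 antibody genes that passed the filter, in each knockout or Cre group over its littermate controls. Points are edgeR estimates and bars 95% intervals. Open points mark the CBK line, taken to have led to the choice of genes. Ighg2c lies at -3.78 in CBK/CEK and -4.13 in CBK, and the interval of every other point includes 0.

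Compared per length of transcript over the 48 libraries, Ighm stood at 4.57 CPM per kb, Ighg2c at 3.17, Igkc at 2.24, Cd79a at 0.501, Igha at 0.206 and Jchain at 0.0960 CPM per kb. In WT, Ighg2c stood at 4.78 CPM per kb, close to Ighm, and in CBK/CEK and CBK it was the gene that left the shared range. As a share of the counts of all heavy chain constant genes, Ighg2c took group means of 30.9% to 38.0% in the 6 groups other than CBK and CBK/CEK. It took 3.88% ± 1.84 in CBK/CEK and 2.56% ± 1.64 in CBK. The other heavy chain constant genes together held 9.97 ± 2.13 CPM in CBK/CEK and 9.56 ± 1.65 CPM in its controls, with group means of 9.35 to 11.8 CPM over all 8 groups. For each Igkc count there were 0.999 ± 0.694 Ighg2c counts in CBK/CEK and 7.25 ± 2.81 in BMAL1/E4BP4 FLOX. In bulk tissue, fewer cells of a type and less RNA per cell cannot be told apart.

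**Figure D3:**
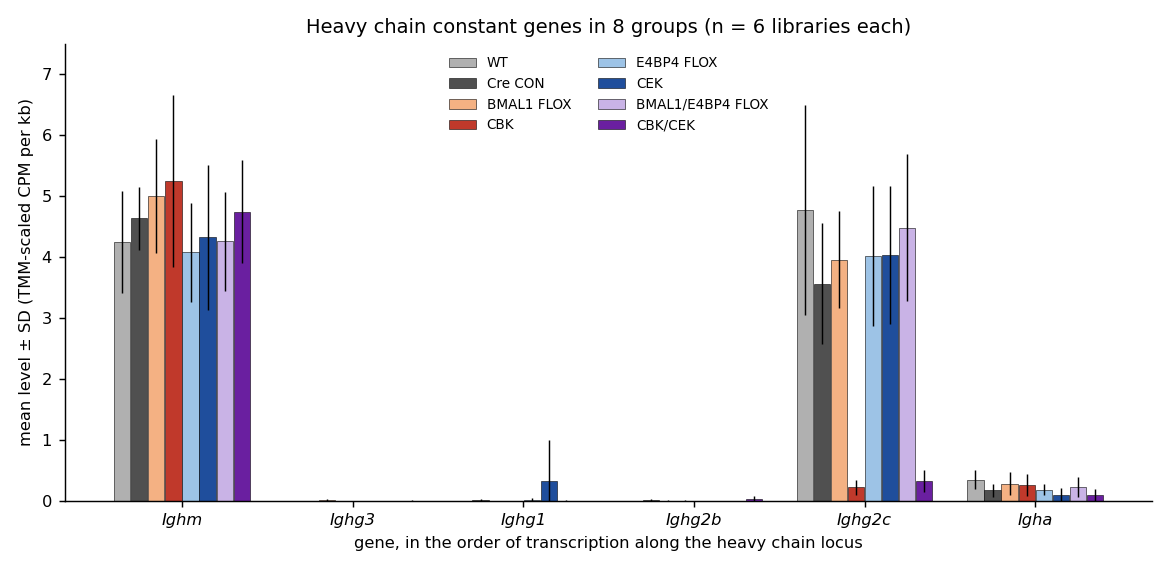
Mean level per length (vertical axis, TMM-scaled CPM per kb, bars with SD, n = 6 libraries) of 6 heavy chain constant genes in the order in which they follow each other along the locus, by group. Ighm and Ighg2c carry nearly all of the signal, and of these 2 genes only Ighg2c is low in CBK and CBK/CEK; the bar of Ighg1 in CEK comes mostly from replicate 5.

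**Figure D4:**
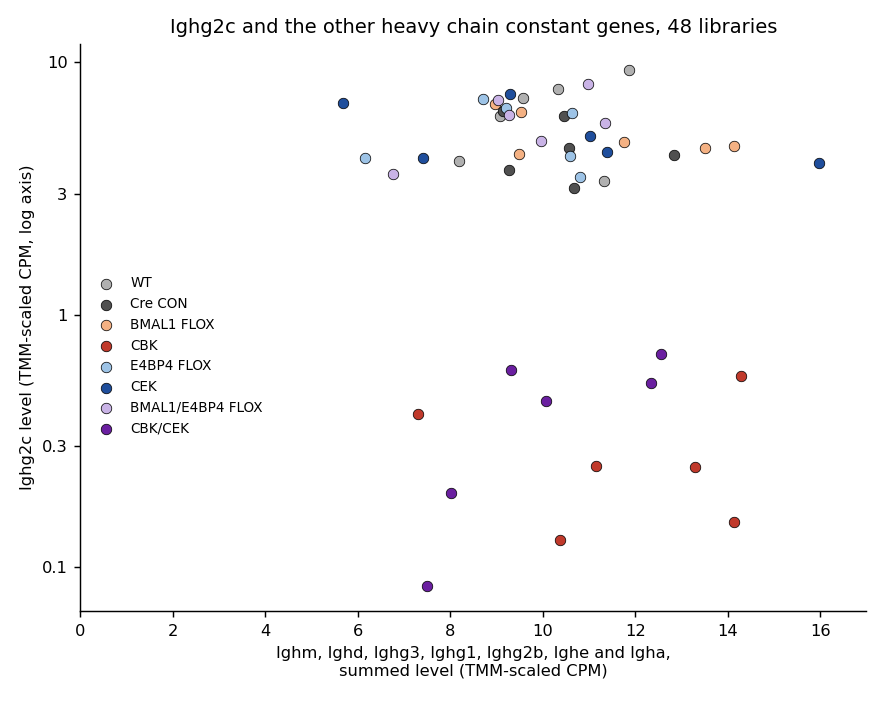
Ighg2c level (vertical axis, TMM-scaled CPM on a log scale) against the summed level of the other heavy chain constant genes (horizontal axis, TMM-scaled CPM, linear) in 48 libraries, coloured by group. The 12 libraries labelled CBK or CBK/CEK lie at 0.0842 to 0.70 CPM on the vertical axis and share the horizontal range of the others.

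Variable segments, which any complete antibody transcript must carry, gave few counts. All heavy chain variable segments in the table together held 258 counts over the 48 libraries, the 160 kappa segments 535 and the 3 lambda segments 54, against 5016 for Ighg2c, and no segment passed the filter. Heavy chain segments summed to 0.330 ± 0.161 CPM in CBK/CEK and 0.320 ± 0.244 CPM in BMAL1/E4BP4 FLOX, and kappa segments to 0.554 ± 0.316 and 0.420 ± 0.255 CPM. In CBK the heavy chain segments stood at 0.0810 ± 0.0766 CPM, and in BMAL1 FLOX at 0.280 ± 0.168 CPM. Variable segments are many, alike and mutated in mature cells, so reads from them are assigned less completely than those of constant genes, and these sums are lower bounds.

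Of 14 B cell genes outside the set, 12 passed the filter and 0 were called in CBK/CEK, CEK or Cre CON, beside 5.87%, 0.307% and 0.018% of all genes. A count of 0 in a list of this size is near those shares, here and for the lists that follow, and is not a result about the list. Their median log2 fold change in CBK/CEK was -0.17, beside -0.02 over all genes tested. Cd37, a membrane protein of B cells, stood at 3.25 ± 0.748 CPM in CBK/CEK and 4.08 ± 1.18 CPM in its controls, and the kinase gene Blk at 2.89 ± 0.935 and 2.5 ± 0.636 CPM. The 14 genes summed to 10.6 to 16.7 CPM in CBK/CEK libraries and 12.5 to 17 CPM in their controls.

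Of 12 plasma cell genes, 9 passed the filter and 0 were called in the same 3 comparisons (5.87%, 0.307% and 0.018% of all genes), with a median log2 fold change of 0.04 in CBK/CEK. The list is carried by genes of the secretory pathway that many cells express, the transcription factor gene Xbp1 at 53.5 ± 2.87 CPM in CBK/CEK and 50.4 ± 5.82 CPM in its controls, and Txndc5, a protein-folding enzyme, at 49.9 ± 2.54 and 50 ± 6.95 CPM. Mzb1, a chaperone more restricted to antibody-secreting cells, stood at 0.544 ± 0.168 CPM in CBK/CEK and 0.617 ± 0.441 CPM in BMAL1/E4BP4 FLOX. Tnfrsf17, which encodes the survival receptor BCMA of plasma cells, stood at 0.271 ± 0.189 and 0.145 ± 0.108 CPM, below the filter. Levels this low leave the number of plasma cells in a library poorly measured.

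**Figure D5:**
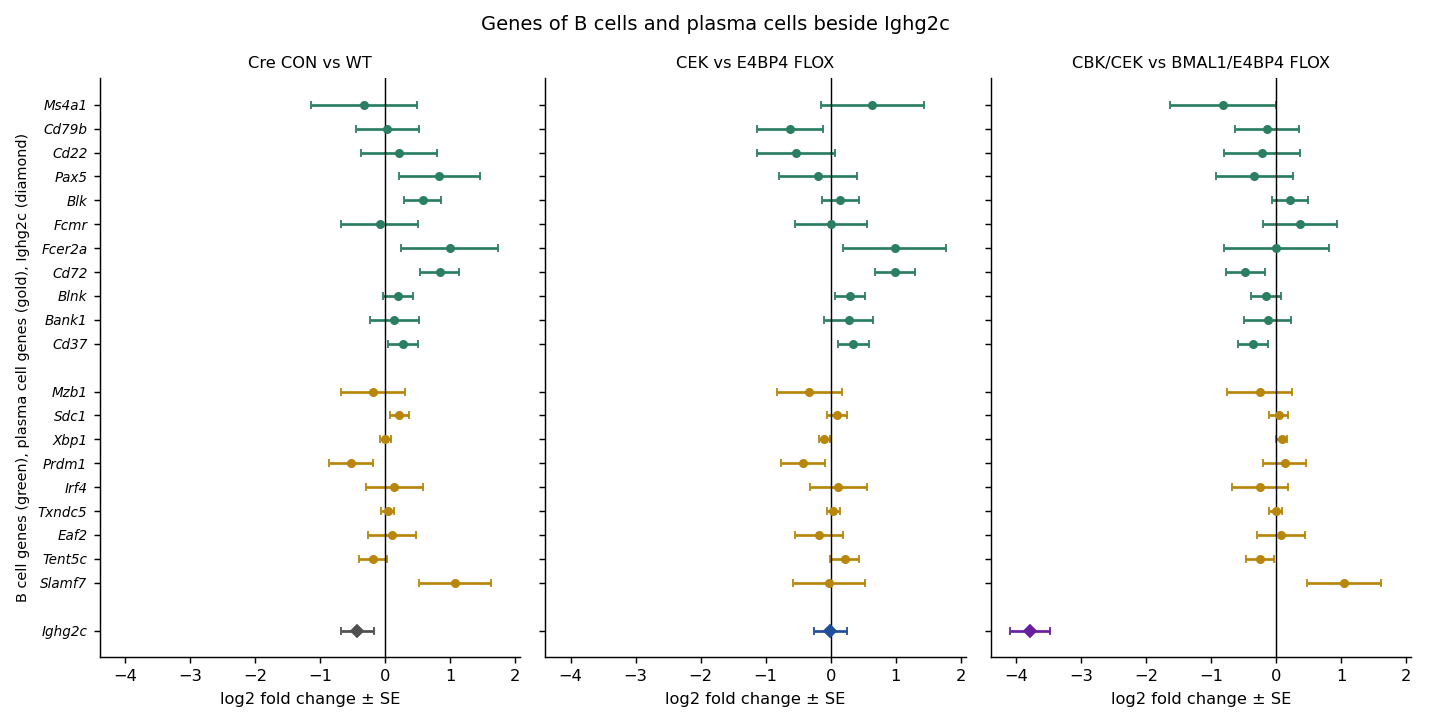
Log2 fold change ± SE (horizontal axes) of 11 of the 12 B cell genes and the 9 plasma cell genes that passed the filter, with Ighg2c as a diamond, in Cre CON, CEK and CBK/CEK over their littermate controls. All genes drawn other than Ighg2c lie within -0.81 and 1.08 in these 3 comparisons, and Ighg2c lies at -3.78 in CBK/CEK.

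Among 12 genes of class switching, 8 passed the filter and 1 was called in CBK/CEK, where 5.87% of all genes were called. It was Ung, the uracil-DNA glycosylase that removes deaminated cytosines in switching B cells and repairs DNA in other cells. Ung held 6.27, 8.28 and 9.92 CPM in the lowest, median and highest CBK/CEK library and 15.8, 18.4 and 21.7 CPM in BMAL1/E4BP4 FLOX, which do not overlap. It fell by 1.18 on the log2 scale (SE 0.17, edgeR adjusted p = 7.22e-07), and stood at -1.40 (SE 0.17) in CBK, without a test. It was not called in CEK (-0.49, SE 0.17, edgeR adjusted p = 0.189), and its change in CBK/CEK differed from that of Cre alone by -0.91 (edgeR adjusted p = 0.0245), a call that was lost without CBK/CEK replicate 6, BMAL1/E4BP4 FLOX replicate 2 or Cre CON replicate 1 or 2 (edgeR adjusted p up to 0.0648). The median log2 fold change of the 8 genes in CBK/CEK was -0.07.

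The receptors that bind and carry antibodies gave 7 genes past the filter out of 10, with 0 called in CBK/CEK, CEK or Cre CON (5.87%, 0.307% and 0.018% of all genes) and a median log2 fold change of -0.18 in CBK/CEK. Fcgrt, the receptor that protects IgG from breakdown, stood at 93.9 ± 9.62 CPM in CBK/CEK and 112 ± 15.4 CPM in its controls (log2 fold change -0.26, SE 0.11, edgeR adjusted p = 0.179). Fcgr3, an activating IgG receptor of myeloid cells, stood at 9.50 ± 2.56 and 9.02 ± 1.78 CPM. Of 12 genes of B cell survival and homing, 7 passed and 0 were called in these comparisons (5.87%, 0.307% and 0.018% of all genes), with a median of 0.12 in CBK/CEK. There the log2 fold change of the chemokine gene Cxcl12 was -0.08 (SE 0.12, adjusted p = 0.827 by edgeR), and that of the adhesion gene Vcam1 was 0.12 (SE 0.14, adjusted p = 0.782). In CBK, without a test, Cxcl12 stood at 98.6 ± 15.2 CPM, against 138 ± 16.8 CPM in BMAL1 FLOX, or -0.48 on the log2 scale (SE 0.12).

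Of 16 genes beside the heavy chain locus on chromosome 12, 13 passed the filter and 0 were called in CBK/CEK, CEK or Cre CON (5.87%, 0.307% and 0.018% of all genes), with a median log2 fold change of -0.05 in CBK/CEK. On the log2 scale Crip2 stood at 0.02 there (SE 0.09, adjusted p = 0.948 by edgeR), and Mta1, a subunit of a chromatin-remodelling complex, at -0.11 (SE 0.11, adjusted p = 0.709). Pacs2, a sorting protein gene, stood at 0.31 in CBK/CEK (SE 0.10, adjusted p = 0.0518 by edgeR), with 52.2 ± 8.35 CPM against 42.0 ± 4.92 CPM in its controls. In CBK, without a test, Pacs2 stood at 0.30 (SE 0.10).

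None of the T cell, macrophage, neutrophil, red cell, fat, lymph node or atrial markers that passed the filter was called in CBK/CEK, CEK or Cre CON, beside 5.87%, 0.307% and 0.018% of all genes. Atrial markers were the list with the largest median in CBK/CEK, a log2 fold change of 0.85 over 5 genes, at 1036 to 2141 CPM summed in CBK/CEK and 106 to 1558 CPM in its controls. In CEK the atrial median was 0.75, with sums of 92.5 to 2905 CPM in CEK libraries and 852 to 1406 CPM in E4BP4 FLOX. Macrophage markers summed to 228 to 451 CPM in CBK/CEK and 281 to 352 CPM in its controls. Of the lymph node and thymus markers, Rag1 had no count in any library, and the chemokine gene Ccl21a stood at 19.1 ± 4.76 CPM in CBK/CEK and 15.4 ± 2.72 CPM in its controls. The part of cell composition in the Ighg2c result was not tested beyond these values.

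Across the 48 libraries, the levels of Ighg2c had a Spearman's rho of -0.188 with Ighm, 0.193 with Igha, 0.150 with Igkc and 0.0541 with Cd79a. Likeness here is the rank correlation of log2 CPM, given as a description, since the libraries share groups and depth. It ran over all groups, so the low Ighg2c of CBK and CBK/CEK weighs on each value. Whether the genes follow each other within groups was not tested. The 5 genes most like Ighg2c were Peli2 (rho 0.739), Cep128 (0.735), Armc2 (0.734), Slc16a7 (0.733) and Ciart (0.729). Such a ranking favours genes that are low in CBK and CBK/CEK, so the low levels of all 5 there are no separate result. Ciart, a repressor within the circadian clock, had a log2 fold change of -1.96 in CBK/CEK and -2.0 in CBK. Armc2 stood at -1.51 and -2.01, Cep128, a centriole protein, at -1.56 and -1.90, the monocarboxylate transporter gene Slc16a7 at -1.10 and -1.44, and the ubiquitin ligase gene Peli2 at -0.81 and -0.62. For Igkc the nearest genes were Samd5 (rho 0.635), Tm4sf1 (0.610), Borcs6 (0.560), Rad1 (0.555) and Hs3st1 (0.533), with log2 fold changes in CBK/CEK between -0.22 and -0.01.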

How the data were processed

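RNA-seq libraries of biventricular heart tissue were made from 1.3 ug of total RNA per mouse with the SMARTER mRNA-seq kit, per the labels. The deposited values are raw counts of reads per gene. Per the submitters' processing notes, the authors used build GRCm39 and the tools HTSeq 0.11.1, STAR 2.7.9a and bcl2fastq 2.18.0.12; no label gives the annotation release or the strandedness. The 5 summary lines of HTSeq (26.9% to 47.0% of records per library) were left out, so 53.0% to 73.1% of records are counted.

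Identifiers were matched to GENCODE M21 symbols for 52093 of 53700 genes (97.0%). That annotation is of build GRCm38. Its positions and sequences describe the genes and were not mixed with coordinates of the authors' build. Its exon lengths were used to scale the authors' counts to CPM per kb, so those levels depend on lengths from another annotation. All 9 genes carry a newer version number in the table than in M21.

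Counts were filtered by filterByExpr over the 8 groups, scaled by TMM and fitted with edgeR 4.0.16 (robust quasi-likelihood) in R 4.3.3 as 8 group means of 48 libraries, with 40 residual degrees of freedom; 16623 genes were tested, 5 of the 9 described among them. P-values were adjusted by Benjamini-Hochberg within a comparison. CPM are counts relative to the TMM-scaled total of the genes that passed the filter. Intervals and the limits set by a count of 0 cover counting error or the spread between these animals only. The edgeR steps were also run on counts simulated from the fitted model itself, a check that does not cover departures from that model. Alternatives were RLE scaling, DESeq2 1.42.0, no filter, a filter of 1 CPM, each comparison's own groups, a replicate block, an animal number covariate, leaving out each library, and, chosen after seeing the data, leaving out 4 libraries of outlying composition (CBK replicate 3, CEK replicates 4 and 6, BMAL1/E4BP4 FLOX replicate 6). In these 4 libraries the gene ENSMUSG00000119584 took 13.3% to 34.8% of gene counts. It took 4.58% to 33.4% in CEK and E4BP4 FLOX libraries, against 0.534% to 1.19% in WT and Cre CON. CEK replicates 1 (18.4%) and 5 (16.8%) and E4BP4 FLOX replicates 1 (14.9%) and 6 (15.3%) were above CBK replicate 3 but were kept. The part of this difference in the results of the CEK line was not tested. The animal number covariate set low against high animal numbers, at cut-offs chosen here. It is not a batch given by the labels.

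The genes, marker lists and comparisons were chosen with earlier results of these data known. Named genes are the 9, the targeted genes, up to 4 called genes per list or else the 2 with the most CPM, and the 5 most like Ighg2c and Igkc; Ighd, Mzb1, Tnfrsf17, Pacs2 and Rag1 were named after their values were seen. Of the genes in the lists, 2 are counted but not reported by name here. The sample titles do not say whether replicate numbers pair littermates, and the main fit used no pairing. Same-numbered libraries correlated over 0.1 in 3 of 6 pairs of the CBK/CEK line, 2 of the CBK line and 0 of the CEK and Cre lines. These correlations cannot settle whether the animals were littermates.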

Additional observations from a re-analysis of the deposited data

Results flagged for a closer look

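There were 72 sets of 6 libraries (9 genes in 8 groups), and those at 0 in all 6 libraries, all of Ighg2b, Ighg1 or Ighg3, could not be tested. In 17 of the rest a library stood apart from the others of its group by Dixon's test at 95%. Chance alone marks about 1 in 20 tested sets, and at counts near 0 a single read is enough to do so. For Ighg2b these were 0.107 CPM in Cre CON replicate 3, 0.0424 in BMAL1 FLOX replicate 2, 0.0311 in CBK replicate 4 and 0.313 in CBK/CEK replicate 1, from 1 to 7 counts. For Ighg3 they were 0.145 CPM in BMAL1 FLOX replicate 4 and 0.0391 in CBK/CEK replicate 5.

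Ighg1 stood apart at 4.35 CPM (83 counts) in CEK replicate 5, and at 0.00750 CPM in WT replicate 1, 0.132 in Cre CON replicate 1, 0.182 in E4BP4 FLOX replicate 1 and 0.0699 in BMAL1/E4BP4 FLOX replicate 1. Cd79a was also high in CEK replicate 5, at 1.47 CPM, and in Cre CON replicate 3, at 1.66 CPM. Igha was high in CBK replicate 5 at 1.63 CPM and listed at 0 in E4BP4 FLOX replicate 3, where Jchain was high at 1.43 CPM. Jchain was also high in CEK replicate 4, at 1.64 CPM.

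The change of Ighg2c differed between lines: in CBK/CEK it was lower by -3.35 on the log2 scale than in Cre CON and by -3.78 than in CEK, each tested as a difference of changes.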

How the results depend on the processing

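Ighg2c kept its direction and its call in CBK/CEK under each of the 20 alternatives, at log2 fold changes of -3.98 to -3.58 and adjusted p-values up to 1.34e-06; leaving out single libraries gave the same range. Its difference from the change in Cre CON stayed between -3.55 and -3.15 and from that in CEK between -3.97 and -3.58. No gene of the set gained or lost a call. The number of all genes called moved by over 1.5 times in these cases. For CEK vs E4BP4 FLOX, 51 became 142 with DESeq2, 17 without a filter, 14 without the 4 outlying libraries, 25 with the 2 groups alone, and, when single libraries were left out, 15 (7 higher and 8 lower, without CEK replicate 6) up to 55 higher and 72 lower (without CEK replicate 3), with such shifts also for CEK replicates 2, 4 and 5 and E4BP4 FLOX replicates 1, 2 and 4. In Cre CON, 3 became 19 with DESeq2, 10 with the 2 groups alone, and from 1 higher and 0 lower (without WT replicate 6) to 5 higher and 11 lower (without Cre CON replicate 1), with shifts also for Cre CON replicates 2 and 3 and WT replicates 4 and 5. In CBK, 1396 became 871 with the 2 groups alone. For CBK/CEK minus CEK, 338 became 198 without the 4 libraries. For E4BP4 FLOX against WT, 0 became 20 with DESeq2, 9 with a filter of 1 CPM, 29 without the 4 libraries and 62 with the 2 groups alone. For BMAL1/E4BP4 FLOX against WT, 47 became 17 with the animal number covariate and 29 with the 2 groups alone. The 19 lower genes of that comparison became 11 (without WT replicate 6) to 18 when single libraries were left out, with such a shift also for WT replicate 5. Counts with single libraries left out were added after seeing the data. The cause was not tested. The replicate block gave 942 calls in CBK/CEK (975 without it), 42 in CEK, 3 in Cre CON, 1385 in CBK and 2 for E4BP4 FLOX against WT. Whether the replicate numbers pair the samples is not known. No call among the set changed under the block.

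Depth limits Igha, Jchain, Cd79a and the IgG genes other than Ighg2c, which hold few counts per library.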
